A study of Mus musculus with 4 samples.

Results

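The genes that carry Wnt signals between cells were followed across the cell types of mouse intestinal adenomas. They comprised 19 Wnt ligand genes, 4 R-spondin genes with the antisense entry Rspo4os, 10 Frizzled receptor genes and the co-receptor genes Lrp5 and Lrp6. They were chosen by symbol, as every gene named Wnt, Fzd or Rspo followed by a number plus Lrp5 and Lrp6, which gave 36 of the 27514 genes present in the gene tables of all libraries. Single-cell libraries were made from unsorted, dissociated adenomas of C57BL/6 mice aged 11 weeks and labelled male, with several tumors pooled in each library. All mice carried the ApcMin allele, which truncates Apc in the germline. The ApcMin group had the genotype ApcMin/+;Lef1 +/+, and the VApcMinL group was ApcMin/+;Lef1 fl/fl with Villin-Cre, a recombinase expressed in the intestinal epithelium and not in stroma or immune cells. Each group had 2 libraries. Replicate 1 of each was prepared with version 2 of the 10x Genomics 3′ kit and replicate 2 with version 3.

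Wnt proteins are lipid-modified short-range ligands. They bind Frizzled receptors together with LRP5 or LRP6 on the receiving cell, which leads to stabilization of β-catenin and transcription through TCF/LEF factors, or act through other routes with co-receptors such as ROR2. R-spondins are secreted proteins that bind LGR receptors and protect Frizzled receptors from the ubiquitin ligases RNF43 and ZNRF3. In the normal intestine, Paneth cells and stromal cells below the epithelium are known sources of these signals and crypt cells are known receivers. Loss of Apc activates β-catenin downstream of the receptors.

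Cells were barcodes with at least 1000 UMIs, counts of distinct captured transcripts, and at most 20% mitochondrial UMIs, which left 12390 cells. Total UMIs were 44660305 and 49009488 in the kit 2 libraries and 98714025 and 128247396 in the kit 3 libraries. Fixed marker lists placed 9260 cells as epithelial-like, 246 as fibroblast-like, 206 as endothelial-like and 1586 as immune-like. None of the members was among the markers. The kit 3 libraries held 8 and 7 endothelial-like cells and 41 and 18 fibroblast-like cells, so their stromal levels rest on few cells. The libraries also differed in red cell markers, whose summed level in the library labelled ApcMin replicate 1 was 9691 CPM in fibroblast-like and 33121 in endothelial-like cells, against 0 to 33.2 in the others. The kit 2 libraries shared 18 cell barcodes and other pairs at most 1.

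Lef1, the deleted gene, was measured first. In epithelial-like cells the libraries labelled ApcMin were at 4.85 and 9.16 CPM (UMI counts-per-million of all UMIs in the class), and those labelled VApcMinL at 10.6 and 15.3, each in replicate order. Both libraries labelled VApcMinL were thus higher than both labelled ApcMin, against the labels. The log2 difference was 0.85 with a standard error of 0.39 and was not called (edgeR quasi-likelihood test, Benjamini-Hochberg adjusted p = 1.00). Among cells high in Wnt target genes, described further on, Lef1 was at 10.6 and 40.9 in the ApcMin and 32.6 and 23.4 in the VApcMinL libraries, which goes against the labels in kit 2 and with them in kit 3. In kit 3, cells high in Wnt target genes were 194 of 1774 epithelial-like cells in ApcMin and 1552 of 3841 in VApcMinL. What part this has in the Lef1 level of the class was not tested. UMIs were read from the end of the transcript and do not test for the floxed exons themselves. Every direction between genotypes below refers to the labels.

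Transcripts of the members were unevenly spread over the 4 classes. Levels are CPM within a class of a library. They are 3′-end counts that are not scaled to gene length, and were compared between classes for a given gene or summed over a family. Of the members, 25 passed the expression filter of the class comparison or had at least 20 UMIs in a class. The other 11 had from 0 to 22 UMIs over all classes. Among the Wnt genes given by level, 5 were highest in fibroblast-like, 3 in epithelial-like, 1 in endothelial-like and 1 in immune-like cells when pooled. The immune gene, Wnt10a, rests on 8 UMIs, and Wnt11, counted for fibroblast-like cells, on 6. Their ratios to epithelial-like cells, 1.77 (0.752 to 3.58) and 1.26 (0.459 to 2.75), do not separate the classes. Wnt3 and Wnt8b, pooled at 1.24 and 0.251 in epithelial-like cells, had no UMI in fibroblast-like or endothelial-like cells. Those zeros allow levels of up to 1.496 and 2.82, so these genes do not separate the classes either. The counts of genes by class were not set against all genes and are a description.

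**Figure D1:**
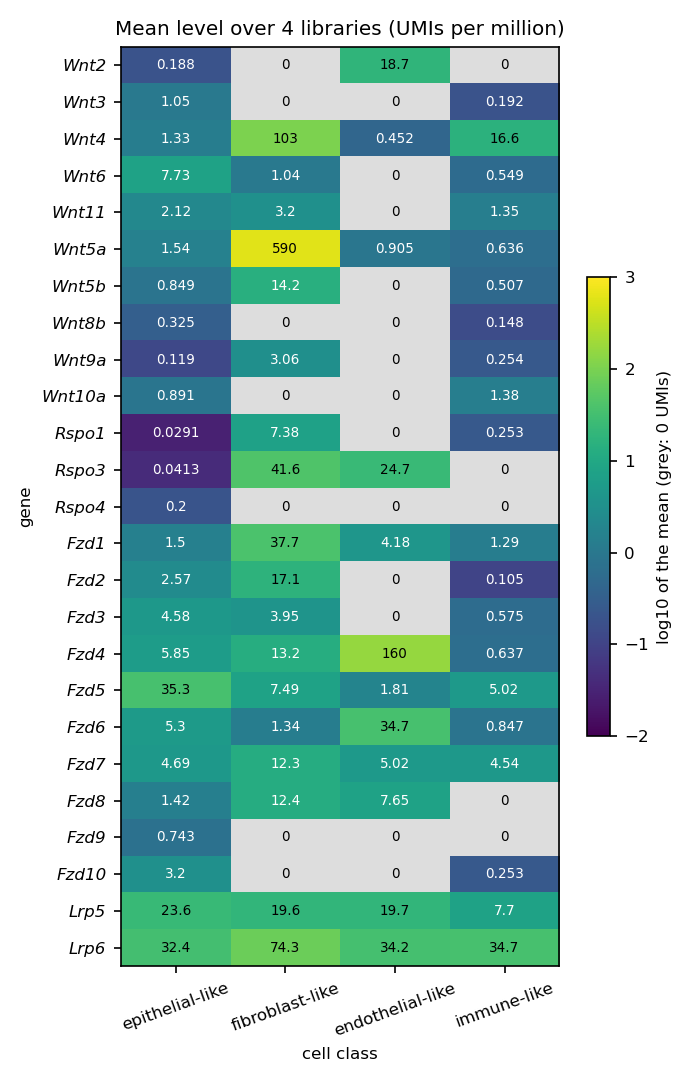
Heatmap of the mean level over 4 libraries of the 25 members given by level (rows) in the 4 cell classes (columns), with the mean in CPM printed in each cell and its log10 as color, and grey for 0 UMIs. Wnt5a and Wnt4 peak in fibroblast-like cells at 590 and 103, Fzd4 in endothelial-like cells at 160, and Fzd5 in epithelial-like cells at 35.3.

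To compare the classes over libraries, the counts of each class in each library were summed and fitted together across all genes with edgeR. The filter passed 10 of the 36 members (Wnt4, Wnt5a, Rspo3, Fzd1, Fzd4, Fzd5, Fzd6, Fzd7, Lrp5 and Lrp6). A gene abundant in 1 class alone can pass it, so the counts describe these genes and support no statement on the others. Against epithelial-like cells, 6 members were higher and 2 lower in fibroblast-like cells, where 25.4% and 26.4% of all 10393 genes tested were called higher and lower. In endothelial-like cells 3 were higher and 1 lower, beside 21.7% and 26.5% of all genes. In immune-like cells 1 was higher and 4 lower, beside 25.6% and 31.3%. Between fibroblast-like and endothelial-like cells, 4 were higher and 2 lower in the former, beside 12.1% and 10.1%. Scaling to totals alone, with no composition factor, moved the split over all genes from 2644 higher and 2746 lower to 3381 and 2030 for fibroblast-like cells, and from 2253 and 2751 to 2951 and 1908 for endothelial-like cells. It moved the median log2 difference of all genes from -0.05 to 0.23 and from -0.15 to 0.20.

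Among ligands, fibroblast-like cells carried most Wnt transcripts per UMI. Summed over the Wnt genes, they had 538 and 1005 CPM in the ApcMin libraries and 609 and 737 in the VApcMinL libraries. Epithelial-like cells had 8.50, 18.2, 26.6 and 12.7 in the same order, immune-like cells 21.5, 20.3, 29.6 and 16.1, and endothelial-like cells 32.6, 0, 33.8 and 13.6. The fibroblast-like values lay above the other classes in every library. All values below are listed in the order ApcMin replicates 1 and 2, then VApcMinL replicates 1 and 2.

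Wnt5a, a ligand best known for β-catenin-independent signaling, made up most of the fibroblast total. It was at 359, 885, 464 and 652 CPM in fibroblast-like cells, a mean of 590 ± 231 (SD, n = 4), and at 1.28, 1.51, 1.02 and 2.37 in epithelial-like cells. The classes did not overlap. Wnt5a differed by a log2 of 8.29 ± 0.31 (SE) against epithelial-like cells (edgeR, adjusted p = 1.30e-12) and 8.05 ± 0.52 against endothelial-like cells (edgeR, adjusted p = 8.30e-09). After each cell was thinned to 1000 UMIs, 19.5%, 46.3%, 28.1% and 44.4% of fibroblast-like cells still held a Wnt5a UMI, against 0.128%, 0.113%, 0.0481% and 0.391% of epithelial-like cells. No endothelial-like cell did, of 122, 8, 69 and 7 cells. Median depths before thinning were 6127, 13565, 5771 and 9404 UMIs in fibroblast-like cells and 3266, 8867, 3271 and 12536 in endothelial-like cells, and 60, 24, 45 and 13 fibroblast-like cells held a Wnt5a UMI before thinning.

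**Figure D2:**
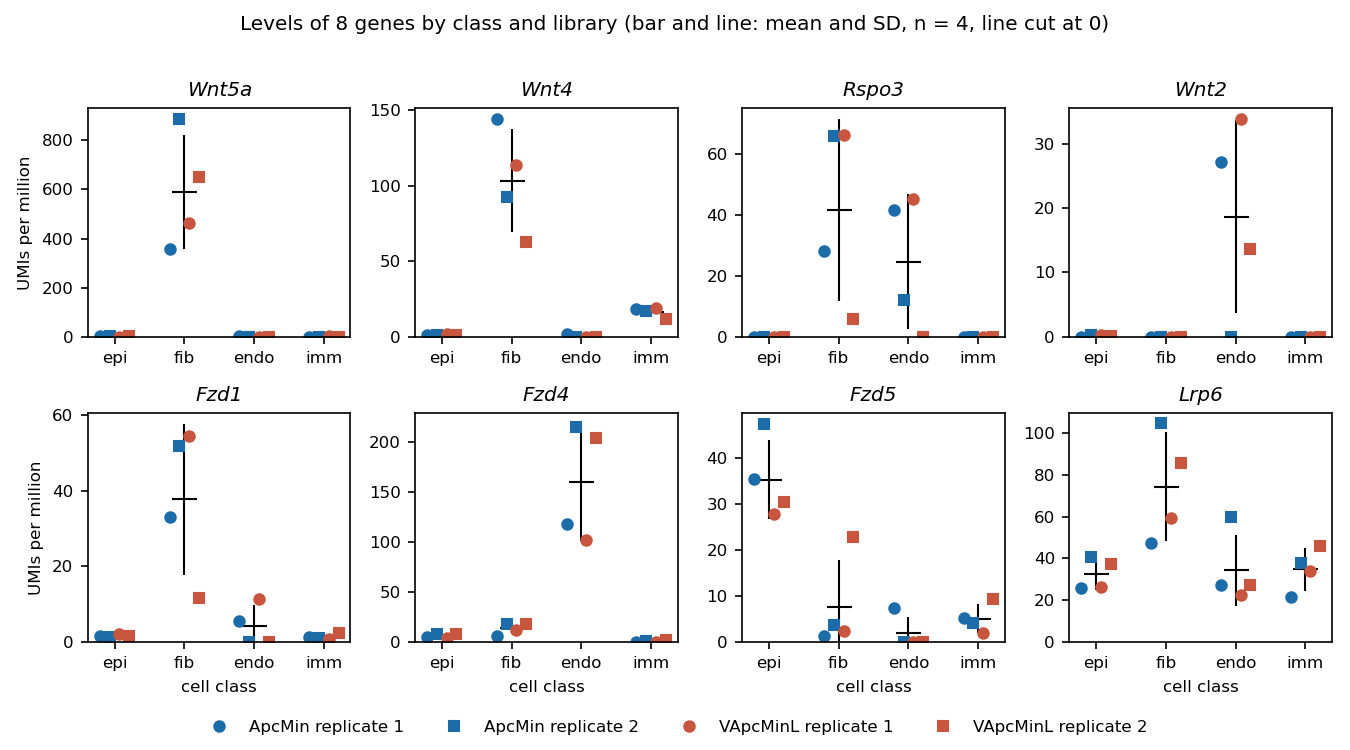
Level in CPM (y axis) of 8 members in epithelial-like, fibroblast-like, endothelial-like and immune-like cells (x axis), a point for each library, with the mean as a bar and the SD over 4 libraries as a line cut at 0. Wnt5a in fibroblast-like cells ranges from 359 to 885 and Fzd4 in endothelial-like cells from 101 to 215, above every other class.

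Within the fibroblast-like cells, Wnt5a was highest in telocyte-like cells, gated on Pdgfra, Foxl1, Bmp4, Bmp5, Bmp7, F3 and Sox6. Telocytes are subepithelial mesenchymal cells known as Wnt and BMP sources. In the 77 telocyte-like cells it was at 633, 1191, 724 and 1294 CPM, and 75 of them held a UMI. Pooled over libraries the level was 839, against 291 in other fibroblast-like cells and 146 in pericyte or smooth muscle-like cells. The first ratio was 2.88 with a 95% counting interval of 2.43 to 3.42. Intervals on pooled counts cover counting error only, and these subclasses were not tested across libraries. Wnt5b, a close relative of Wnt5a, was at 18.9, 14.3, 23.7 and 0 CPM in fibroblast-like and 0.815, 0.639, 1.02 and 0.924 in epithelial-like cells. Its pooled level was 31.5 in telocyte-like and 10.0 in other fibroblast-like cells, a ratio of 3.14 with an interval of 1.25 to 9.38.

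Wnt4, a ligand that acts through β-catenin-dependent and other routes, had a different place among the fibroblasts and was also found in immune-like cells. It was at 144, 92.6, 114 and 62.9 CPM in fibroblast-like cells, at 18.5, 17.2, 18.9 and 11.5 in immune-like cells and between 1.10 and 1.72 in epithelial-like cells. The 3 ranges did not overlap. The log2 difference against epithelial-like cells was 5.98 ± 0.24 in fibroblast-like and 3.62 ± 0.24 in immune-like cells (edgeR, adjusted p = 1.97e-12 and 6.52e-10). Pooled, Wnt4 was at 308 in other fibroblast-like cells and 26.3 in telocyte-like cells, a ratio of 11.7 with an interval of 7.38 to 19.7. Of 77 telocyte-like cells 12 held a Wnt4 UMI and of 101 other fibroblast-like cells 50 did, of which 19 also held Wnt5a. By library, 35 of 62, 2 of 7, 11 of 29 and 2 of 3 other fibroblast-like cells held Wnt4. For telocyte-like cells it was 1 of 36, 5 of 13, 6 of 22 and 0 of 6. The kit 3 libraries thus add few cells to this ratio.

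The immune Wnt4 signal lay in myeloid-like cells, which were gated on Lyz2, Csf1r, Cd68, C1qa, C1qb, C1qc, Cd14 and Fcgr3. It was at 80.5, 64.8, 77.8 and 37.6 CPM there, and pooled at 66.1 against 2.40 in T cell-like and 3.02 in B or plasma cell-like cells. The ratio to T cell-like cells was 27.6 with an interval of 10.4 to 103. The 10 fibroblast markers summed to 33.9, 12.1, 13.9 and 0 CPM in these cells. Wnt4 in immune-like cells remained called after subtraction of the RNA profile of near-empty barcodes.

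Wnt2, a ligand of the β-catenin route, was highest per UMI in endothelial-like cells, at 27.1, 0, 33.8 and 13.6 CPM. In epithelial-like cells it was at 0, 0.284, 0.291 and 0.179, which came from 44 UMIs against 28 in endothelial-like cells, and the pooled ratio was 131 (78.7 to 216). No UMI was found in fibroblast-like or immune-like cells, which allows levels of up to 1.496 and 0.472 when pooled. Against these limits the pooled endothelial level was at least 17.6-fold and 55.7-fold higher. The endothelial Wnt2 came nearly all from lymphatic-like cells, gated on Prox1, Lyve1, Flt4, Pdpn, Ccl21a and Mmrn1. There, Wnt2 was at 189, 0, 284 and 288, from 14, 0, 11 and 1 UMIs. The endothelial-like cells that did not pass the lymphatic gate are called blood vessel-like, with no marker gate of their own. Lymphatic cells with few markers detected may be among them. Blood vessel-like cells had 2 UMIs, and the pooled ratio was 99.4 with an interval of 24.9 to 864.

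**Figure D3:**
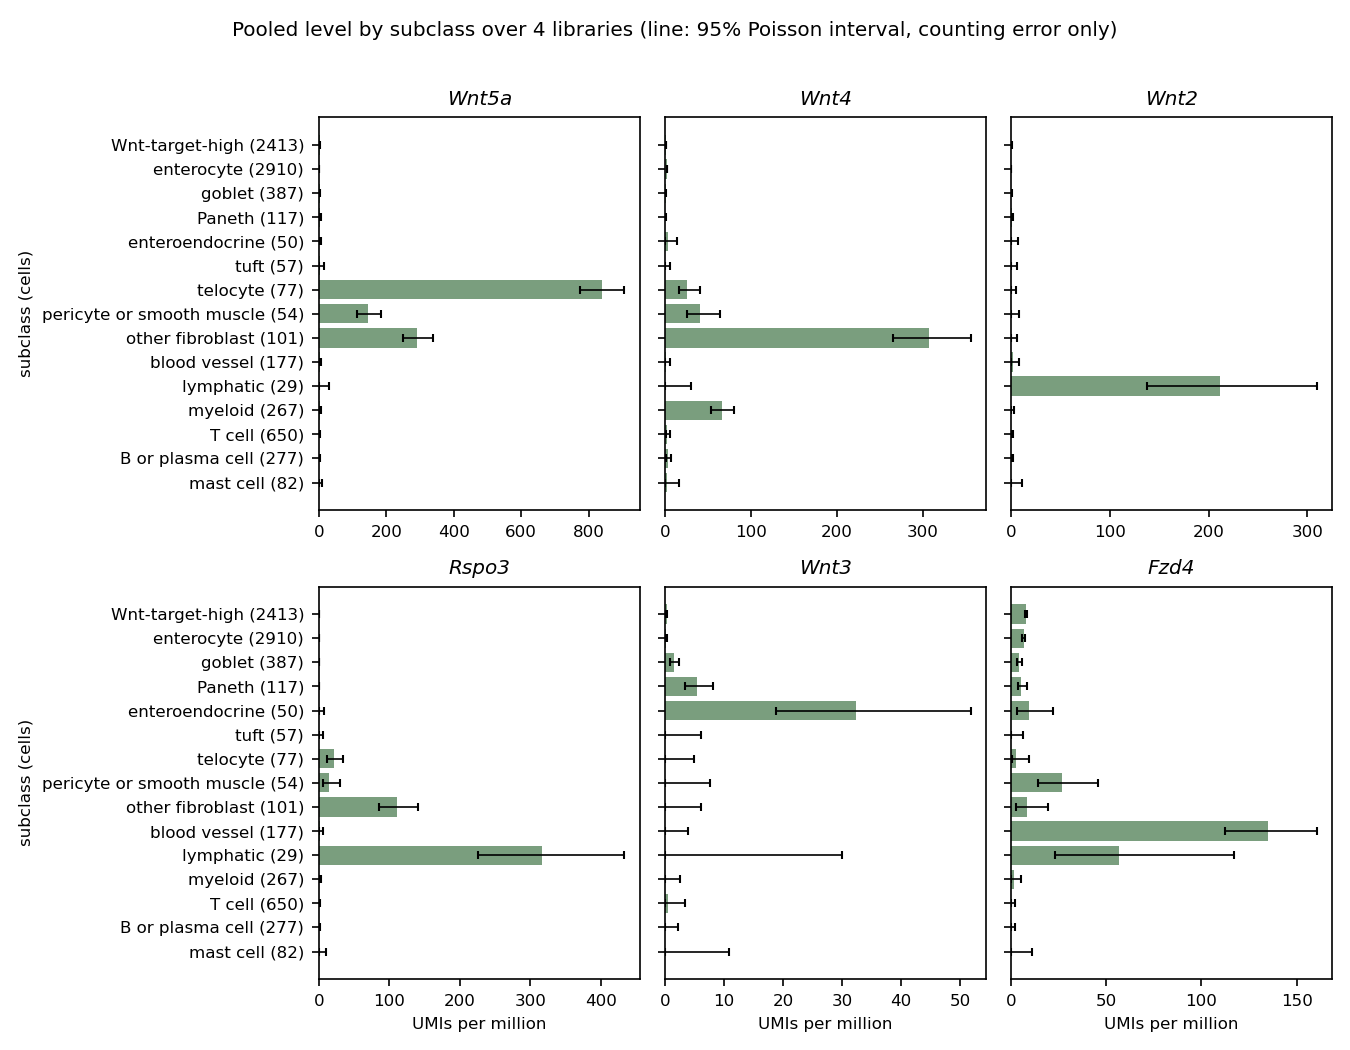
Pooled level in CPM (x axis) of 6 members in 15 subclasses (y axis, with the number of cells), with the 95% Poisson interval as a line. Wnt5a is highest in telocyte-like cells at 839, Wnt2 and Rspo3 in lymphatic-like cells at 211 and 317, Wnt4 in other fibroblast-like cells at 308, Wnt3 in enteroendocrine-like cells at 32.3 and Fzd4 in blood vessel-like cells at 135. Blood vessel-like and other fibroblast-like cells are those that passed no subclass gate of their class.

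Per UMI, Wnt transcripts were scarce in epithelial-like cells, although these deeper and more numerous cells gave more Wnt UMIs in all. Beside Wnt5a, Wnt4 and Wnt5b, they held the following ligands. Wnt6 was at 1.28, 9.64, 17.4 and 2.65 CPM, Wnt11 at 2.66, 2.02, 0.727 and 3.07, and Wnt10a at 0.142, 0.604, 2.50 and 0.318. Wnt6 was high in the libraries labelled ApcMin replicate 2 and VApcMinL replicate 1. Wnt3, the ligand known from Paneth cells, was at 0.744, 1.28, 0.582 and 1.58 and had no UMI in fibroblast-like or endothelial-like cells. The pooled epithelial level of 1.24 lies below the limits of 1.496 and 2.82 that these zeros allow, so no difference from the stroma was detectable. By subclass, Wnt3 was highest in enteroendocrine-like cells, with 17 UMIs in 50 cells, and next in Paneth-like cells, with 22 UMIs in 117 cells. The pooled levels were 32.3 and 5.36, a ratio of 6.03 with an interval of 3.01 to 11.9. Paneth-like cells in turn exceeded enterocyte-like cells, with a ratio of 30.5 (13.8 to 72.0). Of the enteroendocrine UMIs, 12 came from the library labelled VApcMinL replicate 2. Epithelial-like cells held 272 Wnt3 UMIs in all, of which enterocyte-like cells held 10 and cells high in Wnt target genes 17. Epithelial-like cells that passed no subclass gate or more than 1 were not assigned. The ranking covers assigned cells and does not name the main source of Wnt3 UMIs. Wnt8b, at 0.0795 to 0.814 in epithelial-like cells, and Wnt9a, at 1.78 to 5.72 in fibroblast-like cells on 1 or 2 UMIs a library, completed the ligands given by level.

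The remaining ligands were near the limit of detection. Wnt2b had 11 UMIs in fibroblast-like and 10 in epithelial-like cells. Wnt16, Wnt7a, Wnt7b and Wnt9b had 19, 16, 14 and 12 UMIs in epithelial-like cells. Wnt10b had 6, Wnt1 had 2, and Wnt3a had 1. Wnt8a had no UMI in any gated cell. At this depth, such counts do not separate a low level from an absent one.

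Rspo3, a ligand of LGR receptors, was highest in the stromal classes. It was at 28.3, 65.9, 66.3 and 5.72 CPM in fibroblast-like cells and 41.6, 11.9, 45.1 and 0 in endothelial-like cells. Epithelial-like cells had 0.0291 to 0.0709, and immune-like cells had none, which allows up to 0.472. The log2 difference against epithelial-like cells was 9.19 ± 0.58 in fibroblast-like and 8.74 ± 0.65 in endothelial-like cells (edgeR, adjusted p = 4.98e-09 and 4.30e-08). Fibroblast-like and endothelial-like levels overlapped, with a log2 difference of 0.45 ± 0.48 (edgeR, adjusted p = 0.611). In the library labelled ApcMin replicate 2, 1 fibroblast-like cell held 29 of the 37 Rspo3 UMIs, and without it the level there was 15.0 CPM.

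As for Wnt2, the endothelial Rspo3 lay in lymphatic-like cells. These 29 cells came as 17, 1, 10 and 1 from the libraries, and held 23, 1, 15 and 0 Rspo3 UMIs, or 311, 144, 387 and 0 CPM. The 177 blood vessel-like cells held 1 UMI, and the pooled ratio was 298 with an interval of 50.5 to 12077. In kit 2, median UMIs were 4370 and 3033 in lymphatic-like cells and 3041 and 3271 in blood vessel-like cells. Of the lymphatic-like cells 21 held Rspo3, 14 held Wnt2 and 11 held both. After thinning to 1000 UMIs, 29.4% and 50% of those in the kit 2 libraries held Rspo3. Of the 10 fibroblast markers, 9 were at 0 in lymphatic-like cells of both kit 2 libraries and all 10 in kit 3, with summed levels of 13.5, 0, 103 and 0. Outside the endothelium, Rspo3 was at 111 in other fibroblast-like and 21.0 in telocyte-like cells when pooled, a ratio of 5.26 (3.01 to 9.74). Without the cell that held 29 UMIs, a setting chosen after seeing the data, the level in other fibroblast-like cells was 64.9 and the ratio 3.09 (1.68 to 5.95).

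The other R-spondins were sparse. Rspo1 was at 24.8, 0, 4.74 and 0 in fibroblast-like cells, and 18 of its 21 UMIs in the library labelled ApcMin replicate 1 lay in 1 cell. Rspo4 was at 0, 0.373, 0.407 and 0.0199 in epithelial-like cells. It had no UMI in the other classes, whose limits of 1.496, 2.82 and 0.472 in fibroblast-like, endothelial-like and immune-like cells lie above the pooled epithelial level of 0.169, so no difference was detectable. Rspo2 had 1 UMI in fibroblast-like and 1 in epithelial-like cells, and Rspo4os had 3 in epithelial-like cells. Without stated strand handling, reads of Rspo4 and Rspo4os may not be told apart.

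The receptors divided by class. Fzd4, the Norrin and Wnt receptor of vascular endothelium, was at 118, 215, 101 and 205 CPM in endothelial-like cells, a mean of 160 ± 58.4 (SD, n = 4). It was at 4.22, 7.97, 4.01 and 7.19 in epithelial-like and 5.90, 17.8, 11.8 and 17.2 in fibroblast-like cells. The endothelial values exceeded all others. Fzd4 differed by a log2 of 4.39 ± 0.26 from epithelial-like cells (edgeR, adjusted p = 2.93e-10), and fibroblast-like cells differed from endothelial-like cells by -3.59 ± 0.33 (edgeR, adjusted p = 3.41e-07). In contrast to Rspo3 and Wnt2, pooled Fzd4 was higher in blood vessel-like cells, at 135, than in lymphatic-like cells, at 56.9, a ratio of 2.37 (1.12 to 6.02). Barcodes with 10 to 100 UMIs, too few for a cell, had Fzd4 at 25.8, 82.8, 25.6 and 84.6.

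Fzd6, a receptor linked to planar cell polarity, was also highest in endothelial-like cells, at 32.6, 47.8, 31.0 and 27.3 CPM, against 4.54, 4.90, 3.43 and 8.32 in epithelial-like cells, a log2 difference of 2.53 ± 0.43 (edgeR, adjusted p = 9.18e-05). The endothelial values in kit 3 rest on 4 and 2 UMIs. Fibroblast-like cells held 3 Fzd6 UMIs and were lower than epithelial-like cells by a log2 difference of -1.98 ± 0.76 (edgeR, adjusted p = 0.0359). That call was lost without ApcMin replicate 1, VApcMinL replicate 1 or VApcMinL replicate 2 (adjusted p = 0.242, 0.0961 and 0.0929).

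Fzd1, a receptor of the β-catenin route, was highest in fibroblast-like cells, at 33.0, 51.7, 54.5 and 11.4 CPM against 1.38, 1.17, 2.04 and 1.40 in epithelial-like cells, a log2 difference of 4.44 ± 0.38 (edgeR, adjusted p = 1.93e-08). Other fibroblast-like cells had more Fzd1 than telocyte-like cells when pooled, 82.0 against 22.3. Fzd2, closely related to Fzd1 and Fzd7, was at 11.8, 26.7, 7.11 and 22.9 in fibroblast-like and 2.52, 2.02, 2.27 and 3.48 in epithelial-like cells, without overlap. Fzd7, a receptor known from intestinal stem cells, was at 13.0, 14.3, 4.74 and 17.2 in fibroblast-like and 4.18, 5.63, 3.26 and 5.70 in epithelial-like cells, and its ranges overlapped. The log2 difference was 1.11 ± 0.42 (edgeR, adjusted p = 0.0340), and the call was lost without either ApcMin replicate 1 or 2 (adjusted p = 0.226 and 0.0816) and after free RNA was subtracted (adjusted p = 0.0662). Fzd8 was at 7.08, 16.0, 9.48 and 17.2 in fibroblast-like cells, at 10.9, 0, 19.7 and 0 in endothelial-like cells and at 0.921, 1.46, 1.16 and 2.13 in epithelial-like cells. The zeros come from 8 and 7 cells, and the fibroblast-like values all exceeded the epithelial ones.

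Fzd5, the Frizzled known from differentiated intestinal epithelium and Paneth cells, was highest in epithelial-like cells. It was at 35.4, 47.4, 27.9 and 30.4 CPM there, and at 1.18, 3.56, 2.37 and 22.9 in fibroblast-like, 7.24, 0, 0 and 0 in endothelial-like and 5.05, 4.06, 1.78 and 9.20 in immune-like cells. No other class reached the epithelial range. Log2 differences against epithelial-like cells were -3.37 ± 0.56, -3.48 ± 0.71 and -2.81 ± 0.40 (edgeR, adjusted p = 5.97e-05, 0.000523 and 9.73e-06). Fzd3 was at 2.30, 3.78, 2.06 and 10.2 in epithelial-like and at 2.36, 5.34, 2.37 and 5.72 in fibroblast-like cells, where it rests on 7 UMIs. These ranges overlapped. Fzd10 was at 1.42, 3.25, 6.22 and 1.93 in epithelial-like cells and had no UMI in fibroblast-like cells, so that the pooled epithelial level was at least 1.92-fold higher. Fzd9 was at 0.567 to 0.872 in epithelial-like cells and at 0 elsewhere, but the limits of 1.496 and 2.82 in fibroblast-like and endothelial-like cells lie above its level and allow no comparison with them.

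The co-receptors were detected in all 4 classes of every library. Lrp6 was at 47.2, 105, 59.2 and 85.8 CPM in fibroblast-like and 25.5, 40.5, 26.4 and 37.1 in epithelial-like cells, without overlap. The log2 difference was 0.89 ± 0.19 (edgeR, adjusted p = 0.000573). In immune-like cells, Lrp6 was at 21.5, 37.5, 33.8 and 46.0 and was not called (log2 difference 0.12 ± 0.17; edgeR, adjusted p = 0.581). Within them it was at 78.3, 85.0, 80.6 and 91.3 in myeloid-like cells and 7.54, 32.0, 25.6 and 22.1 in T cell-like cells, a pooled ratio of 3.97 (2.71 to 5.97). Lrp5 was at 27.4, 20.4, 26.0 and 20.8 in epithelial-like and 8.84, 11.2, 2.37 and 8.43 in immune-like cells, a log2 difference of -1.67 ± 0.31 (edgeR, adjusted p = 0.000170). Lrp5 did not pass the test in fibroblast-like or endothelial-like cells (edgeR, adjusted p = 0.0936 and 0.298).

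The epithelium was then divided by Wnt target genes. Wnt-target-high-like cells held at least 4 of Axin2, Nkd1, Notum, Wif1, Lgr5, Ascl2, Prox1 and Tcf7, and at most 6 of 9 absorptive markers. Enterocyte-like cells held at least 7 of the absorptive markers and at most 1 of the Wnt target markers. Cells that also passed another epithelial subclass gate were left out of both. This gave 2413 Wnt-target-high-like cells, as 314, 194, 353 and 1552 by library, and 2910 enterocyte-like cells, as 403, 973, 822 and 712. The question was whether the ligand and receptor genes differed with the state of the receiving cell. Of the 36 members 15 passed the filter, and 9 were higher and 3 lower in Wnt-target-high-like cells, where 37.7% and 35.6% of all 11964 genes tested were called higher and lower. Fzd10, Fzd3 and Wnt5b were at or near 0 in enterocyte-like cells and could pass the filter through the other group, so here too the counts are a description. The log2 differences and p-values of these genes rest on few enterocyte-like UMIs and are a description too. Scaling to totals alone gave 6692 genes higher and 2609 lower in place of 4507 and 4264, with a median log2 difference of all genes of 0.61 in place of 0.04.

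Fzd5 was the Frizzled of the enterocyte-like cells, at 79.8, 63.0, 44.7 and 80.6 CPM against 11.99, 8.22, 5.76 and 15.0 in Wnt-target-high-like cells. The log2 difference was -3.28 ± 0.15 (edgeR, adjusted p = 4.50e-06). Fzd3, a receptor linked to planar polarity, went the other way, with 3.23, 13.5, 5.76 and 13.8 in Wnt-target-high-like and 0, 0.111, 0.0902 and 0.224 in enterocyte-like cells (log2 difference 5.73 ± 0.33, edgeR, adjusted p = 9.97e-06). In every library these receptors differed in opposite directions.

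Other Frizzled genes resembled Fzd3. Fzd10 was at 2.42, 14.1, 24.5 and 2.37 CPM in Wnt-target-high-like cells, with 0, 3, 1 and 0 UMIs in enterocyte-like cells (log2 difference 6.71 ± 0.39, edgeR, adjusted p = 9.63e-06). Fzd6 was at 5.93, 14.3, 6.70 and 10.6 against 0.562, 0.739, 0.451 and 1.42, and Fzd2 at 2.42, 5.59, 4.52 and 3.84 against 0.375, 0.0739, 0.541 and 0.448. Their log2 differences were 3.01 ± 0.29 and 3.17 ± 0.52 (edgeR, adjusted p = 7.56e-05 and 0.00106). Fzd8 was higher by 1.21 ± 0.31 (edgeR, adjusted p = 0.00959), a call lost without VApcMinL replicate 2 (adjusted p = 0.0516). Fzd1, Fzd4 and Fzd7 did not pass the test, with log2 differences of 0.64 ± 0.33, -0.33 ± 0.21 and 0.20 ± 0.20.

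**Figure D4:**
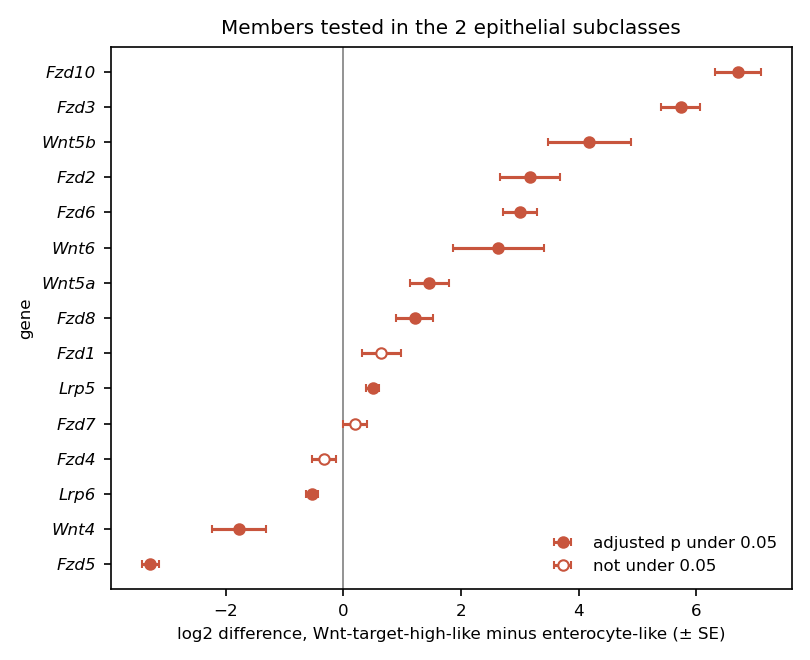
Log2 difference between Wnt-target-high-like and enterocyte-like cells (x axis, ± SE) of the 15 members tested (y axis), with filled points for an adjusted p under 0.05. Fzd10 and Fzd3, at or near 0 in enterocyte-like cells, lie at 6.71 and 5.73 and Fzd5 at -3.28. Lrp6, at -0.54, moves to 0.024 when scaled to totals alone.

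Among ligands, Wnt5b and Wnt5a were higher in Wnt-target-high-like cells, by log2 differences of 4.18 ± 0.70 and 1.46 ± 0.33 (edgeR, adjusted p = 0.00124 and 0.00544). Wnt5b had 9, 16, 22 and 49 UMIs there and 0, 5, 0 and 0 in enterocyte-like cells. Wnt4 was lower by -1.78 ± 0.46 (edgeR, adjusted p = 0.00989). Wnt6 was higher by 2.63 ± 0.77 (edgeR, adjusted p = 0.0167), at 2.96, 43.9, 64.6 and 3.31 against 0.936, 2.44, 1.98 and 2.54. That call was lost without ApcMin replicate 2 or VApcMinL replicate 1 (adjusted p = 0.0841 and 0.0853), the libraries in which Wnt6 was high. Lrp5 was higher by 0.50 ± 0.12 and Lrp6 lower by -0.54 ± 0.10 (edgeR, adjusted p = 0.00598 and 0.00251). Scaled to totals alone, the difference of Lrp6 was 0.024, and after thinning it was not called (adjusted p = 0.138).

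Promoters of members that differed between these epithelial states were read from RefSeq on GRCm38.p6, for which the table held no entry for Fzd3, from 250 bases before to 50 after the annotated start. Shown are Wnt5b and Fzd10, higher in Wnt-target-high-like cells, and Fzd5, lower there, to set sequences of members that differed in opposite directions side by side. The Wnt5b window was chosen because it held a match. The windows of Wnt6, higher in Wnt-target-high-like cells, and Wnt4, lower there, held no match and are not shown. Capitals mark a match to CTTTGA or CTTTGT, core letters of the TCF/LEF motif, on either strand. The windows are chr6:119449337-119449636 on the minus strand for Wnt5b, the only match among its 3 annotated starts, chr5:128600856-128601155 on the plus strand for Fzd10, and chr1:64737701-64738000 on the minus strand for Fzd5.
Wnt5b: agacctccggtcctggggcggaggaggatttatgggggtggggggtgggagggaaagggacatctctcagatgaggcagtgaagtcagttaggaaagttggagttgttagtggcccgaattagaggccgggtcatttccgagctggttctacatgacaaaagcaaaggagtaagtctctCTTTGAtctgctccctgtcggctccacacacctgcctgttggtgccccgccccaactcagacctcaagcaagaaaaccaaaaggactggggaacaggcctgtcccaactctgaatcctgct
Fzd10: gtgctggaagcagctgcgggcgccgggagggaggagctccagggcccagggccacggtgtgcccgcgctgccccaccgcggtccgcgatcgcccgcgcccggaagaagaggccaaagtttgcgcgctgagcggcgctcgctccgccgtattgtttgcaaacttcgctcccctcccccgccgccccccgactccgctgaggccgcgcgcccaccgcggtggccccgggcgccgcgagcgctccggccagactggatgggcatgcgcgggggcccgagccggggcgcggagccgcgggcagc
Fzd5: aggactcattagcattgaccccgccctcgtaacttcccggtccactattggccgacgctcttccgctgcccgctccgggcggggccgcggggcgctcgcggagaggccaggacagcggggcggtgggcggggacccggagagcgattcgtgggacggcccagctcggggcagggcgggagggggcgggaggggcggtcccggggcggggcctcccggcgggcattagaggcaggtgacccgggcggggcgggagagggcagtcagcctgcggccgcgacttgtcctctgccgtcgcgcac
The promoter table matched 23 of the members, with 26 promoters. Of these 6 held either word, 3 CTTTGA and 4 CTTTGT, where 31.2% of all 32851 promoters held either, 16.0% CTTTGA and 18.7% CTTTGT. The median GC content was 71.2% in the members' promoters and 52.7% in all promoters. A match is a run of letters and was not tested as a binding site.

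Several epithelial members varied widely between libraries. In Wnt-target-high-like cells, Wnt10a was at 0.269, 3.12, 10.9 and 0.345 CPM, Wnt8b at 0.135, 1.15, 3.11 and 0.161, and Rspo4 at 0, 0.986, 1.87 and 0. Like Wnt6 and Fzd10, they were high in the libraries labelled ApcMin replicate 2 and VApcMinL replicate 1, which are of different genotype and kit. The 8 gate markers summed to 644, 1788, 2314 and 704 there, high in the same libraries, and what part this has in the levels of the members was not tested. Wnt6 and Wnt10a are neighbors on chromosome 1, with 6696 bases between them. Of the Wnt-target-high-like cells, 277 held Wnt6, 48 held Wnt10a and 33 held both, and 206 held Fzd10, of which 81 also held Wnt6. Cells of 1 library share their depth and origin, so these counts are a description.

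**Figure D5:**
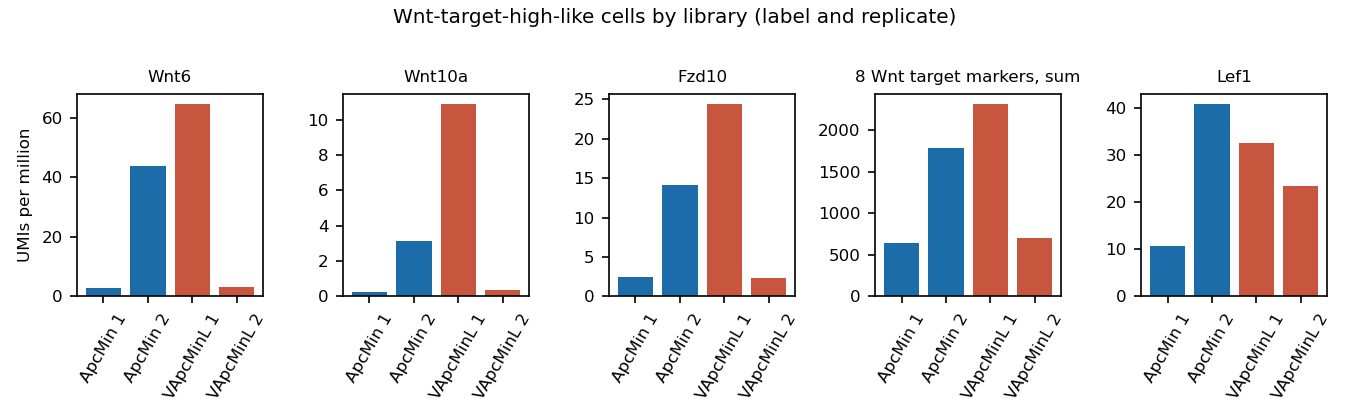
Level in CPM (y axis) of Wnt6, Wnt10a, Fzd10, the sum of 8 Wnt target markers and Lef1 in Wnt-target-high-like cells of each library (x axis). Wnt6 stands at 43.9 and 64.6 in the libraries labelled ApcMin 2 and VApcMinL 1, against 2.96 and 3.31 in the others, and the marker sum is high in the same libraries.

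Last, the genotypes were compared within each class, with the kit as a block. No member was called in any class by edgeR, none had an unadjusted p under 0.05, and DESeq2 called none. In epithelial-like cells 22 members were tested, and 0% of 14548 genes were called, with 45 genes at an unadjusted p under 0.05 and 19 genes called by DESeq2. In fibroblast-like, endothelial-like and immune-like cells 7, 1 and 3 members were tested, beside 0.0446%, 0.0261% and 0.0108% of all genes called. Lef1 was against the labels in epithelial-like cells of both kits, but with them among Wnt-target-high-like cells of kit 3. A missing call therefore does not show that the members were alike between genotypes.

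Values by kit pair show how the genotypes compared. As log2 differences of VApcMinL minus ApcMin, Wnt6 in epithelial-like cells was at 3.72 in kit 2 and -2.02 in kit 3, Wnt10a at 3.65 and -1.03, and Fzd10 at 2.102 and -0.91, so that the kits went in opposite directions. With 1 library of each genotype in a kit, this difference between kits was not tested. Fzd5 was lower in both pairs, by -0.33 and -0.81, with a fitted difference of -0.57 ± 0.35 (edgeR, adjusted p = 1.00). Within the enterocyte-like and Wnt-target-high-like cells this direction held in kit 2, but in kit 3 Fzd5 was higher in VApcMinL. In Wnt-target-high-like cells of kit 3 it was at 8.22 CPM in ApcMin and 15.0 in VApcMinL. Enterocyte-like cells were 973 of 1774 epithelial-like cells in ApcMin replicate 2 and 712 of 3841 in VApcMinL replicate 2. What part this has in the class values was not tested. In fibroblast-like cells Wnt4 was lower in both pairs, by -0.44 and -0.60, with a fitted difference of -0.48 ± 0.30. There, Wnt5a had 0.26 and -0.52 (fitted -0.08 ± 0.26) and Rspo3 1.04 and -2.73 (fitted -0.02 ± 0.69; edgeR, adjusted p = 1.00 for the 3 genes). The kit 3 value of Rspo3 compares 37 UMIs in ApcMin, 29 of them in 1 cell, with 1 UMI in 18 cells in VApcMinL. Fzd4 in endothelial-like cells had a fitted difference of -0.24 ± 0.34, and Lrp5 in immune-like cells -1.12 ± 0.52 (edgeR, adjusted p = 1.00 and 0.809).

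Genes around the members in the pathway were counted from a list of 35 for secretion, other receptors, receptor removal, inhibitors and signaling inside the cell. Between fibroblast-like and epithelial-like cells 23 were tested, 8 were higher and 6 lower, where 25.4% and 26.4% of all genes were called. Wls, which carries Wnt ligands to the cell surface, was higher by a log2 difference of 2.23 ± 0.21, and the secreted Wnt inhibitor Sfrp1 by 10.99 ± 0.45 (edgeR, adjusted p = 7.30e-08 and 2.47e-12). Lower were Lgr5, a receptor of R-spondins, by -3.53 ± 0.75, the ubiquitin ligase Rnf43 by -5.13 ± 0.49, and Ctnnb1, which encodes β-catenin, by -1.02 ± 0.17 (edgeR, adjusted p = 0.00110, 9.48e-08 and 7.28e-05). In immune-like cells 2 of these genes were higher and 12 lower than in epithelial-like cells, beside 25.6% and 31.3% of all genes, and in endothelial-like cells 1 and 7, beside 21.7% and 26.5%. Between Wnt-target-high-like and enterocyte-like cells, 10 were higher and 6 lower of 21 tested, leaving out the gate markers, beside 37.7% and 35.6% of all genes. Wls was higher by 2.58 ± 0.23, the co-receptor Ptk7 by 3.57 ± 0.36, the ubiquitin ligase Znrf3 by 3.68 ± 0.27, the inhibitor Dkk2 by 6.78 ± 0.37 and the cytoplasmic Dvl2 by 0.98 ± 0.22 (edgeR, adjusted p = 5.65e-05, 0.000100, 2.62e-05, 8.23e-06 and 0.00474). Dvl2 and Dvl3 were the only genes of signaling inside the cell called higher. Apc, Csnk1a1, Ctnnb1, Dvl1 and Gsk3a of that list were lower, by log2 differences between -0.69 for Gsk3a and -0.40 for Csnk1a1. Scaling to totals alone moved the median log2 difference of all genes from 0.04 to 0.61. The direction of such small differences can therefore depend on the scaling. The sixth gene called lower was Kremen2, a receptor of DKK inhibitors, at -3.28 ± 0.23 (edgeR, adjusted p = 2.19e-05). None of the pathway genes tested was called between genotypes in any class.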

How the data were processed

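The study profiled 4 unsorted adenoma libraries by 10x Genomics 3′ single-cell RNA sequencing. The authors deposited raw UMI counts per gene and barcode, for all barcodes. The submitters' processing notes name Cell Ranger 2.1.1, Seurat 3.1.1 and the builds mm10 and GRCm38, and the kit 3 matrices name a later Cell Ranger release, so a gene can be annotated differently between kits. Only gene identifiers common to the 4 gene tables were used, and the rest accounted for 0.192% to 0.568% of a library's UMIs.

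Barcodes with at least 1000 UMIs and at most 20% mitochondrial UMIs were kept, and the mitochondrial limit removed 27.4% to 62.9% of a library's barcodes. Cells were gated by the number of different markers with a UMI (epithelial at least 6 of 8, fibroblast 5 of 10, endothelial 5 of 10, immune 4 of 10). Cells passing more than 1 gate were left out as possible doublets, and no doublet caller was run. Names given to gates are rebuilt from markers and may differ from the study's. Free RNA was estimated from barcodes with 10 to 100 UMIs as 3.17% to 16.4% of the UMIs of non-epithelial classes.

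Counts were summed per class and library and tested with edgeR 4.0.16 in R 4.3.3 (TMM, filterByExpr with a minimum count of 10, quasi-likelihood F test, Benjamini-Hochberg adjustment over all genes, calls at 0.05). Class comparisons were fitted over all 4 libraries and genotype comparisons within a class with kit as a block, since the labels tie the replicate number to the kit. The correlation of deviations of same-kit libraries from their group means was 0.197 in epithelial-like, 0.481 in fibroblast-like, 0.337 in endothelial-like and 0.414 in immune-like cells. DESeq2 1.42.0 and the other settings in the closing section were alternatives. The edgeR step was tested on simulated data. Intervals on pooled counts are exact at 95%, limits for 0 UMIs are 3 counts over the pooled class, and both cover counting error only. The labels do not say whether libraries came from separate animals, so p-values measure the spread between these libraries.

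A member was given by level where it passed the filter of the class fit or had at least 20 UMIs in a class, and otherwise by its counts. Of the other pathway genes, the called gene with the largest log2 difference in each list was named, in 2 comparisons. Genes named in this way were picked for their size, so their log2 differences and p-values are a description. Members, marker lists and pathway lists were chosen with earlier results of these data known.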

Additional observations from a re-analysis of the deposited data

Results flagged for a closer look

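Fzd4 stood out in barcodes that were not kept as cells and entered the comparisons only as the profile for free RNA subtraction. In barcodes with 10 to 100 UMIs, too few for a cell, Fzd4 was at 25.8 CPM in the library labelled ApcMin replicate 1, 25.6 in VApcMinL replicate 1, 82.8 in ApcMin replicate 2 and 84.6 in VApcMinL replicate 2. The kept cells of the same libraries were at 5.97, 4.76, 8.22 and 7.32, below the near-empty barcodes in 4 of 4 libraries. The source of these UMIs was not tested. Fzd4 in endothelial-like cells remained called after the profile of these barcodes was subtracted.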

How the results depend on the processing

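Of 35 members called in a class comparison, counted once per comparison, 27 kept their call and direction under every alternative that tested them. Leaving out each library in turn gave from 6 to 8 members called (8 with all libraries) for fibroblast-like against epithelial-like, 4 to 6 (4) for endothelial-like against epithelial-like, 5 to 7 (5) for immune-like against epithelial-like, 5 to 7 (6) for fibroblast-like against endothelial-like and 9 to 12 (12) for Wnt-target-high-like against enterocyte-like cells. In the same order, no filter on low counts gave 17, 9, 11 and 10 members for the first 4, and thinning every cell to 1000 UMIs gave 2, 0, 1, 2 and 2, with only 2 or 3 members left to test. In kit 2 alone, a setting chosen after seeing the data, endothelial-like against epithelial-like and Wnt-target-high-like against enterocyte-like cells each gave 7. The exceptions among single members were Lrp6, whose Wnt-target-high difference became 0.024 with scaling to totals, and calls lost for Fzd6 and Fzd7 in fibroblast-like cells and for Fzd8, Lrp5, Lrp6, Wnt4 and Wnt6 between epithelial subclasses, and for Lrp6 between fibroblast-like and endothelial-like cells in kit 2 alone. The cause was not tested.

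Over all genes, the genotype comparison called 0 genes in epithelial-like cells and 19 with DESeq2, 2 with no filter, 2 thinned and 2 with totals. In fibroblast-like cells it called 3, and 1 with a floor of 2000 UMIs, with stricter gates or thinned, 9 at 10% mitochondrial UMIs, 41 with no filter, 6 with totals and 0 with no replicate block. In endothelial-like cells it called 1, and 2 with DESeq2, 0 with a floor of 5000 UMIs or thinned, 34 with no filter and 7 with stricter gates. In immune-like cells it called 1, and 21 with DESeq2, 2 with RLE size factors, a floor of 5000 UMIs, 10% mitochondrial UMIs, stricter gates or totals, 140 with no filter, 12 thinned and 0 with no replicate block. No member was called in any of these.

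Leaving out a library in the genotype comparison leaves 1 kit pair and a value with no test. These ranged from -2.02 to 3.72 for Wnt6, -1.03 to 3.65 for Wnt10a and -0.91 to 2.102 for Fzd10 in epithelial-like cells. In fibroblast-like cells they ranged from -0.52 to 0.26 for Wnt5a and -2.73 to 1.04 for Rspo3. The low end of Rspo3 compares 37 UMIs, 29 of them in 1 cell, with 1 UMI. Wnt5a also changed sign when thinned, to 0.13, and Rspo3 at 10% mitochondrial UMIs, to 0.090, and with totals, to 0.032. Few stromal cells in kit 3 and few UMIs per member limit what these data can resolve.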

Other observations

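Cells that passed no gate numbered 867, of which 228 had at least 3 red cell markers, 17 at least 3 pericyte or smooth muscle markers, and 0 at least 3 glial or mesothelial markers. Rspo3 and Rspo1 had no UMI in them, and Wnt5a was at 4.32 CPM (95% interval 2.23 to 7.54), against 554 in fibroblast-like cells when pooled. Wnt6 and Fzd10 were at 6.83 (4.11 to 10.7) and 3.60 (1.72 to 6.61).

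Fzd6 was also higher in near-empty barcodes than in kept cells of the kit 3 libraries, at 25.9 against 4.97 CPM in ApcMin replicate 2 and 25.2 against 8.21 in VApcMinL replicate 2, while in the kit 2 libraries it was at 4.88 against 4.50 and 4.94 against 3.48.

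Other members that lie close together are Wnt10b and Wnt1 on chromosome 15, with 11650 bases between them. On chromosome 11, Wnt3a and Wnt9a have 16097 bases between them, and the annotated spans of Wnt9b and Wnt3 overlap.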
